A study of Mus musculus with 24 samples.

Results

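The livers of 16 mice were compared at 2 times after their last injection of IUB288, an agonist of the glucagon receptor named here by its code. All 16 mice were diet-induced obese (labelled DIO) and had received IUB288 for 4 d. The 22 h group held the 8 livers taken 22 h after the last injection, and the 4 h group held the 8 livers taken 4 h after it. These were all the IUB288 livers among the 24 of the series. The other 8, from mice given vehicle, entered 1 alternative fit and no comparison, so every difference here is between 2 times on the drug and says nothing of the distance to an untreated liver. Strain, sex, age, dose, route and the clock time of the injections are not stated in the labels. Time since injection and time of day cannot be told apart in this design. Each liver came from a separate mouse, and values of bulk liver cannot tell fewer cells of a type from less RNA per cell. From 22355 genes with counts, 10908 passed a filter on low counts and were tested, and a gene was called where limma-voom, a linear model of weighted log counts, gave a p adjusted over all of them under 0.05. By that rule 31.6% of the genes tested were called.

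Glucagon binds a receptor of the hepatocyte surface, GCGR, that couples through a stimulatory G protein to adenylyl cyclase. The cAMP formed releases the catalytic subunits of protein kinase A, which phosphorylate CREB and act on its coactivators, and genes of glucose output such as Pck1 and G6pc are transcribed. The pathway also induces genes that limit it, among them phosphodiesterases that break down cAMP, the repressor form of Crem and the kinase Sik1. In the liver the same genes answer to insulin, which opposes glucagon through FOXO factors, and to the circadian clock.

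The total of counts per liver ran from 24650133 to 35181339 at 4 h and from 25808273 to 35200498 at 22 h, so depth was alike at both times. The first principal component of log2 CPM (counts scaled to the size of the library) held 30.3% of the variance, and all 8 livers of 4 h lay apart from all 8 of 22 h on it. The second held 15.8% and set 4 livers apart from the rest, namely replicates 6 and 7 of 22 h and replicates 4 and 8 of 4 h. Cyp3a11, a drug-metabolising cytochrome P450, was at 246 and 238 CPM in that pair of 22 h livers and at 376 and 768 CPM in that pair of 4 h livers, against 739 to 1808 CPM in the other 12. By this gene 4 h replicate 8 thus lay within the range of the others. Both 22 h livers also carried the lowest summed levels of endothelial, stellate and macrophage markers, given further on. In 4 h replicate 8, 23 genes of at least 5 CPM were 4 or more times as high as in any other liver, among them the mitochondrial transcripts COX2 (3877 CPM, against 33.7 to 827 CPM in the other 15) and ATP6. None of these 23 genes was called. Without the 4 livers set apart, an alternative chosen after seeing the data, 3287 genes were called in place of 3442, and list counts without them are given where they moved by over 1.5 times and at least 2 genes. Hepatocyte markers such as Alb, the gene with the most counts in the libraries, made up 97454 to 127950 CPM (median 104430) summed over 13 genes at 4 h and 89158 to 123460 CPM (median 103670) at 22 h. Of them 3 were called higher and none lower, and without those 4 livers 4 higher and 2 lower.

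**Figure D1:**
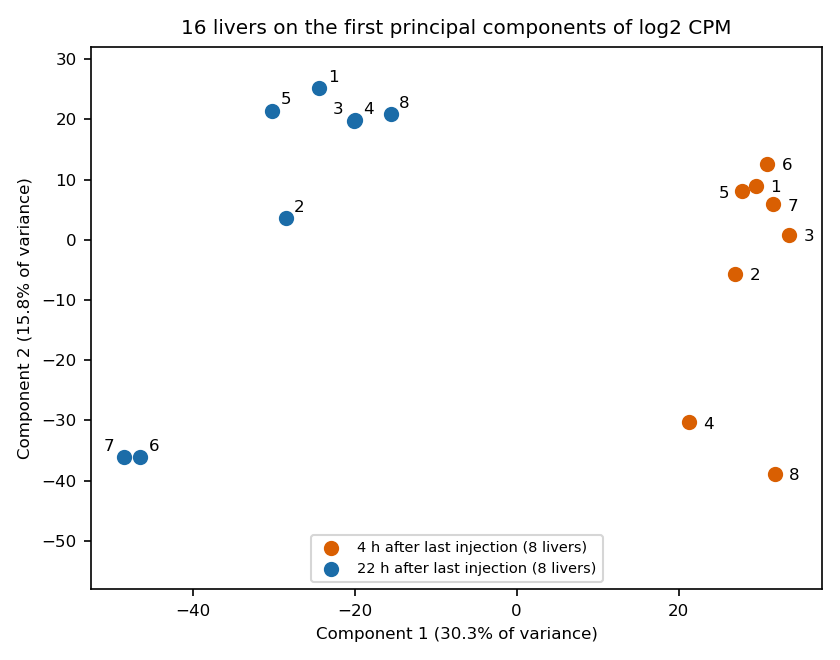
The 16 livers on the first components of log2 CPM, where each point is a liver with its replicate number and the axes give the share of variance. The times separate on component 1, and replicates 6 and 7 of 22 h and 4 and 8 of 4 h lie at the low end of component 2.

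The genes on which the account turns have promoters that can be read beside their values. The windows below, from RefSeq on GRCm38.p6, run over the 250 bases before an annotated start site, 5′ to 3′ on the strand of the gene. For Nr4a3, Nr4a1, Per1 and Ppargc1a that start lies inside the annotated span of the gene, downstream of its outermost end. They were searched on both strands for the full cAMP response element (TGACGTCA), its short form (TGACG), the E-box (CACGTG) that clock factors bind, the D-box (TTACGTAA) and the sterol regulatory core (CACCCCAC). Irs2, Per1 and Hmgcs1 are shown because they held an E-box or a sterol core, and Nr4a3, Nr4a1, Pck1, Ppargc1a and G6pc were added after their values were seen, because they are textbook cAMP targets that were lower at 22 h. Capitals mark the short element in the first 4, the D-box in G6pc, the E-box in Irs2 and Per1 and the sterol core in Hmgcs1. The full element contains the short one, and no window shown held the full one.
Nr4a3 (chr4:48045055-48045304, plus strand): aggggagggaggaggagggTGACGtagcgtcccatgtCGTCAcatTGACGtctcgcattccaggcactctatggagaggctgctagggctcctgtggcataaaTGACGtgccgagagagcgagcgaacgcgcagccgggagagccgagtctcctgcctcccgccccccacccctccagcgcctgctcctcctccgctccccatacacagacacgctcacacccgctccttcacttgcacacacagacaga
Nr4a1 (chr15:101266596-101266845, plus strand): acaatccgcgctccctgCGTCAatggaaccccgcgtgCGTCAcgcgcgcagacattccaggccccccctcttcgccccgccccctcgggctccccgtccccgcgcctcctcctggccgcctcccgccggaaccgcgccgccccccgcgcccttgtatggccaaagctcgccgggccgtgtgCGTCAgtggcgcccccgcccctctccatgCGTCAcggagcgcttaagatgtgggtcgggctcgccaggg
Pck1 (chr2:173152823-173153072, plus strand): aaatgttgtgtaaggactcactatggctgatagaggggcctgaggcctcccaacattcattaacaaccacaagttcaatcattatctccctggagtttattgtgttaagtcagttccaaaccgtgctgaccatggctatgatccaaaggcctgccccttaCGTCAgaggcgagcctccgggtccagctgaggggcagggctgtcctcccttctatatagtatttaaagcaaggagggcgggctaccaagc
Ppargc1a (chr5:51567726-51567975, minus strand): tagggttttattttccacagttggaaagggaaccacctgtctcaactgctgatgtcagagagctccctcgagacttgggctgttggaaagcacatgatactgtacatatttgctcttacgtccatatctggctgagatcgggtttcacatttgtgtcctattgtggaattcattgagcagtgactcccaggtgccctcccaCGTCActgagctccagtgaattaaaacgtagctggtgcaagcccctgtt
G6pc (chr11:101367466-101367715, plus strand): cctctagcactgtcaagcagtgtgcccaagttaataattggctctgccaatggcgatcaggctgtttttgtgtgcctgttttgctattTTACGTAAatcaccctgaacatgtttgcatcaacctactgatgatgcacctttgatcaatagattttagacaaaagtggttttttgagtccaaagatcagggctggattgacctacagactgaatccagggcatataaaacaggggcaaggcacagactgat
Irs2 (chr8:11008930-11009179, minus strand): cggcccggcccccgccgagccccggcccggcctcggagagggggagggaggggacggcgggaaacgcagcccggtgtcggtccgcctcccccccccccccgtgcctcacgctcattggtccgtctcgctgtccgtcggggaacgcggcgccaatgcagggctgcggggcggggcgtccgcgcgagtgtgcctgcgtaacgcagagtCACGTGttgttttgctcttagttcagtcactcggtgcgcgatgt
Per1 (chr11:69098699-69098948, plus strand): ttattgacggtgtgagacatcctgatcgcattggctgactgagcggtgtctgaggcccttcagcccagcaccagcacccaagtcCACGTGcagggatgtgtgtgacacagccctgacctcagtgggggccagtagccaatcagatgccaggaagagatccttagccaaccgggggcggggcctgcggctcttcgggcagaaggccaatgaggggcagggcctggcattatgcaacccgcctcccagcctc
Hmgcs1 (chr13:119690101-119690350, plus strand): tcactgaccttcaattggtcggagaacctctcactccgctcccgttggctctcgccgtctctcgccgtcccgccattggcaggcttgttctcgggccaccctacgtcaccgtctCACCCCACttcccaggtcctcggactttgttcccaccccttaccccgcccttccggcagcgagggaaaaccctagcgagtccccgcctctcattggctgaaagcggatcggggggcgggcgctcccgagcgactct
Nr4a3 and Nr4a1 each held 4 matches to the short element, while Pck1 held 1, which begins 90 bases before its start, and Ppargc1a held 1, which begins 49 bases before it. The windows of Per1 and Hmgcs1 also held the short element, left in lower case above, and Hmgcs1 was not called. G6pc, Irs2, Tat and Igfbp1, all called lower at 22 h, had no match to it in their windows. Only the exact letters given were searched, so other forms of the cAMP response element would be missed, in G6pc as well.

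Across the transcriptome 3442 of 10908 genes (31.6%) differed between the times by limma-voom with Benjamini-Hochberg adjustment at 0.05. Of these, 1727 (15.8% of those tested) were higher at 22 h and 1715 (15.7%) were lower. Most differences were small, with a median of 1.41-fold over the genes called. At least 2-fold differences were called for 403 genes higher and 252 lower, and at least 4-fold differences for 68 higher and 53 lower. All 8 livers of one time lay outside the range of the other for 1207 genes (11.1%), 566 (5.19%) higher and 641 (5.88%) lower. Over all genes tested the median log2 difference, 22 h minus 4 h, was -0.004, and lists are read against it. Counts of called list members are to be read beside the 15.8% higher and 15.7% lower of all genes tested.

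**Figure D2:**
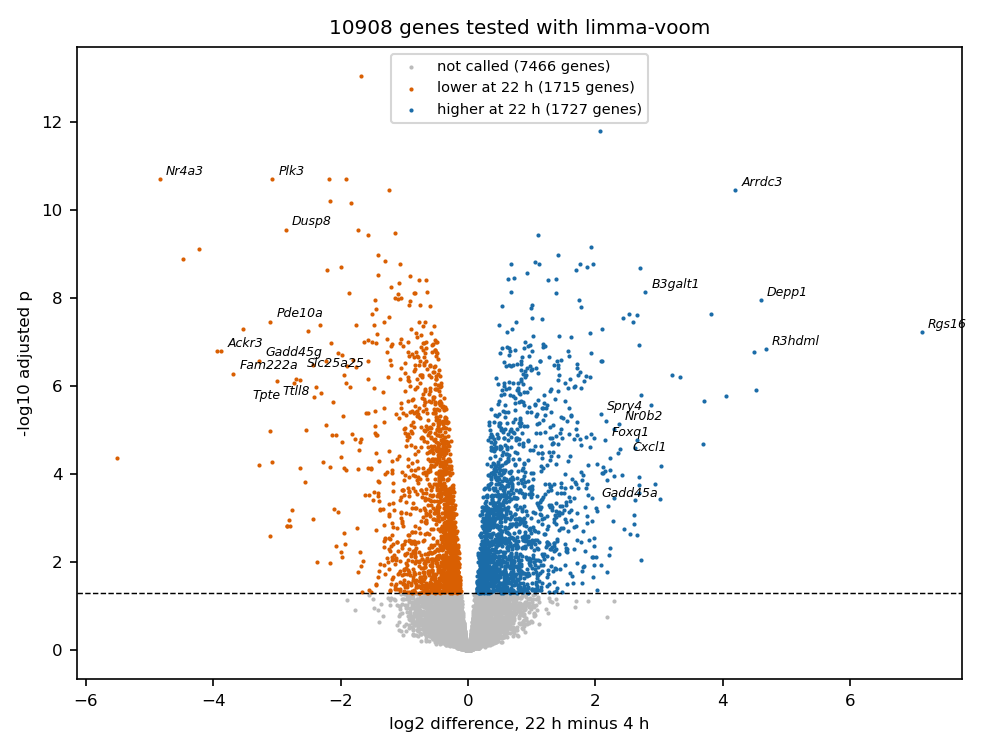
Every gene tested, by its log2 difference (22 h minus 4 h, horizontal) and its adjusted p from limma-voom on a -log10 scale (vertical, the dashed line at 0.05). The 10 largest called rises and falls among genes of at least 5 CPM are named, from Nr4a3 (-4.84) to Rgs16 (7.12).

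A window was found for 7595 of the genes tested. The full cAMP response element stood in the window of 4.33% of genes called lower at 22 h (55 of 1271), in 2.12% of those called higher (26 of 1226), in 2.18% of those not called and in 2.53% of all tested. Over all 27025 genes with a RefSeq window the share was 1.77%. Of the 234 genes called at least 2-fold higher, 1 held the full element, and of the 170 called at least 2-fold lower, 7 did (4.12%). The short form stood in 34.5% of genes called lower, 23.7% of those called higher and 27.5% of all tested. Windows of genes called lower were also richer in G and C, with a median of 62.4% against 56% for genes called higher and 58% for all tested. For genes called at least 2-fold it was 58% for those lower and 51.2% for those higher. The part of base composition in these shares was not tested. For the E-box the shares were close together, at 11.4% of genes called lower, 10.4% of those called higher and 9.44% of all tested. Sterol cores stood in 4.25%, 3.34% and 3.53%, in the same order. A FOXO element (TGTTTAC) stood in 2.28%, 3.75% and 3.11%. These matches are a description of letters and not of bound sites.

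Of the 10 largest falls the first was Nr4a3, and it is given here with genes of the cAMP response and with Plk3, another of the 10. Nr4a3, an orphan nuclear receptor induced within hours by cAMP, was at 29.3 to 44.3 CPM (median 40.3) at 4 h and at 0.729 to 2.32 CPM (median 1.35) at 22 h. The groups lay far apart, and the level at 22 h was 28.7-fold lower (log2 difference -4.84, SE 0.22, adjusted p = 1.98e-11, limma-voom). Its relative Nr4a1, whose window above held 4 short elements, was at 16.03 to 30.8 CPM (median 24.4) at 4 h and 1.98 to 6.68 CPM (median 4.799) at 22 h, again without overlap (log2 difference -2.43, SE 0.24, adjusted p = 3.38e-07, limma-voom). Crem, the gene of a CREB-family factor with a repressor form, was at 106 to 168 CPM (median 116) at 4 h and 20.9 to 30.3 CPM (median 27.4) at 22 h. Sik1, a kinase that restrains the coactivators of CREB, was at 135 to 208 CPM (median 178) at 4 h and 27.3 to 47.5 CPM (median 40.6) at 22 h. Both had tight groups that did not overlap. The level at 22 h was 4.53-fold lower for Crem and 4.504-fold lower for Sik1 (adjusted p = 1.98e-11 and 6.39e-11, limma-voom). Plk3, a Polo-like kinase of the stress response, was at 220.2 to 444 CPM (median 291) against 27.4 to 45.8 CPM (median 36.3). Every 4 h liver was above every 22 h liver (log2 difference -3.08, SE 0.14, adjusted p = 1.98e-11, limma-voom).

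Among 31 CREB early genes tested, 12 were lower at 22 h and 4 were higher, with a median log2 difference of -0.30. The 4 higher genes were Klf10 (1.37), Egr1 (1.31), Cited2 (1.18) and Klf9 (0.37). They are transcriptional regulators, and Egr1 is itself an early-response gene, so the list did not move as a block. Phosphatases and growth-arrest genes were divided as well. Of 20 in that list, 4 were lower, namely Gadd45g (-3.28), Plk3 (-3.08), Dusp8 (-2.86) and Dusp1 (-2.51), where the DUSP proteins dephosphorylate MAP kinases. The 5 that were higher were Gadd45a (2.23), Spry4 (2.08), Dusp4 (0.90), Spred1 (0.50) and Spred2 (0.37), of which the last 2 and Spry4 encode inhibitors of receptor tyrosine kinase signalling. Gadd45g was at 12.2 to 32.7 CPM (median 19.3) at 4 h and 0.945 to 4.07 CPM (median 2.05) at 22 h. Gadd45a went the opposite way, at 3.07 to 17.6 CPM (median 5.06) at 4 h and 13.9 to 52.04 CPM (median 30.05) at 22 h. Groups of Gadd45g stood apart and those of Gadd45a overlapped through the highest of the 4 h livers.

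The remaining large falls included Ackr3, an atypical chemokine receptor, at 3.31 to 9.47 CPM (median 6.24) against 0.148 to 0.544 CPM (median 0.424). Fam222a was at 11.04 to 30.6 CPM (median 17.6) at 4 h and 0.8501 to 2.41 CPM (median 1.43) at 22 h, and Slc25a25, a calcium-sensitive carrier of adenine nucleotides across the inner mitochondrial membrane, at 583 to 824 CPM (median 685) and 48.02 to 257 CPM (median 137). None of these ranges overlapped between the times. Log2 differences were -3.88, -3.69 and -2.63, with adjusted p of 1.59e-07, 5.18e-07 and 7.23e-07 (limma-voom). Ttll8 and Tpte, with log2 differences of -3.01 and -2.72, completed the 10, and neither exceeded 13.3 CPM in any liver.

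Genes that end cAMP and G protein signals moved in both directions. Pde10a, a cyclic nucleotide phosphodiesterase, was at 17.1 to 41.7 CPM (median 27.04) at 4 h and 1.82 to 4.82 CPM (median 3.67) at 22 h. Pde4d, a phosphodiesterase specific for cAMP, was at 65.7 to 84.4 CPM (median 76.1) and 16.2 to 36.9 CPM (median 27.4). Both were lower at 22 h with no overlap, by 8.5997-fold and 2.84-fold (adjusted p = 3.44e-08 and 2.32e-08, limma-voom). Rgs16, which speeds the shut-off of inhibitory G proteins and of Gq, was at 0.215 to 2.78 CPM (median 0.808) at 4 h and 66.2 to 207 CPM (median 139) at 22 h. It was the largest rise of the comparison among genes of at least 5 CPM, 139-fold (log2 difference 7.12, SE 0.60, adjusted p = 6.01e-08, limma-voom). Arrdc3, an alpha-arrestin that takes part in receptor trafficking, was at 16.1 to 29.3 CPM (median 22.7) at 4 h and 257 to 633 CPM (median 438) at 22 h. Its groups too were far apart, with an 18.3-fold higher level at 22 h (log2 difference 4.19, SE 0.20, adjusted p = 3.59e-11, limma-voom). Over the 30 phosphodiesterases, RGS proteins and arrestins tested, 4 were higher, the others being Pde9a (1.13) and Pde4c (1.02), and 9 were lower. The median was -0.26.

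The receptor itself was higher at 22 h. Gcgr was at 79.9 to 96.9 CPM (median 87.04) at 4 h and 109 to 179 CPM (median 125) at 22 h, a 1.501-fold difference with no overlap (log2 difference 0.59, SE 0.09, adjusted p = 5.59e-05, limma-voom). Of 24 genes for the receptor, cyclases, protein kinase A and its anchors, the other one called higher was Adcy6 (0.25), an adenylyl cyclase, and 6 were lower. Prkar1a, a regulatory subunit that holds protein kinase A inactive, was at 258 to 293 CPM (median 275) at 4 h and 218 to 236 CPM (median 226) at 22 h. The shift was small but the groups did not overlap (log2 difference -0.28, SE 0.04, adjusted p = 3.46e-05, limma-voom). Adcy1, another cyclase, was near the limit of measurement at 1.46 to 4.22 CPM (median 2.05) and 0.233 to 0.963 CPM (median 0.584).

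**Figure D3:**
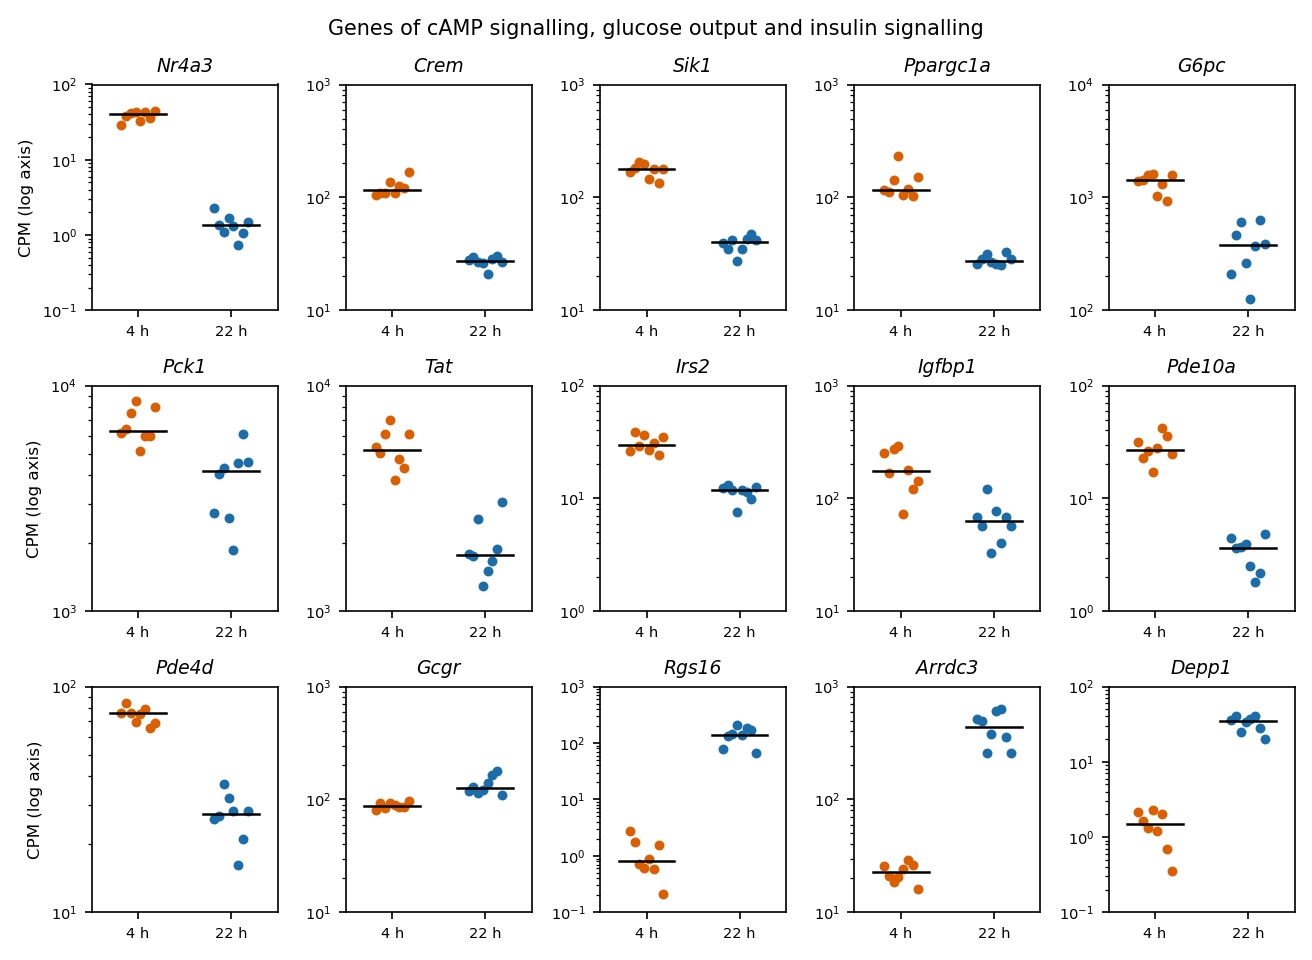
CPM on a log axis in each of the 8 livers of 4 h (orange) and 22 h (blue) for 15 genes, with a bar at the median of each group. Nr4a3, Crem, Sik1 and Ppargc1a lie wholly lower at 22 h, Rgs16, Arrdc3, Depp1 and Gcgr lie wholly higher, and Pck1 and Igfbp1 overlap.

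Several genes of glucose output were lower at 22 h. G6pc, the catalytic subunit of the phosphatase that frees glucose, was at 932 to 1603 CPM (median 1417) at 4 h and 127 to 633 CPM (median 378) at 22 h. No 22 h liver reached the lowest 4 h liver, and the difference was 3.92-fold (log2 difference -1.97, SE 0.27, adjusted p = 1.84e-05, limma-voom). Pck1, which makes phosphoenolpyruvate from oxaloacetate, was at 5111 to 8521 CPM (median 6301) at 4 h and 1863 to 6100 CPM (median 4185) at 22 h. Its groups overlapped and the difference was smaller, 1.83-fold (log2 difference -0.87, SE 0.20, adjusted p = 0.00207, limma-voom). Ppargc1a, a coactivator of gluconeogenic and mitochondrial genes, was at 102 to 233 CPM (median 117) at 4 h and 25.3 to 33.2 CPM (median 27.5) at 22 h. The 22 h livers lay close together and well under the 4 h livers, of which replicate 4 was the highest (log2 difference -2.22, SE 0.14, adjusted p = 2.29e-09, limma-voom). Tat, the tyrosine aminotransferase that glucagon and glucocorticoids induce, was at 3804 to 7046 CPM (median 5186) and 1291 to 3039 CPM (median 1782), again without overlap (log2 difference -1.48, SE 0.16, adjusted p = 1.10e-06, limma-voom).

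Of 20 gluconeogenic genes tested, 9 were lower, 1 was higher and 10 did not pass, with a median of -0.12. The higher one was Slc25a10 (0.27), a mitochondrial dicarboxylate carrier. Without the 4 livers set apart, 7 were lower. Genes that break down amino acids were called less often than genes at large, and in both directions. Of 41 tested 33 were not called, against 7466 of all 10908. The list had 5 lower, namely Tat (-1.48), Got1 (-1.17), Aass (-0.93), Sds (-0.71) and Dld (-0.18), and 3 higher, Bcat2 (1.04), Hal (0.73) and Amt (0.30). Without the 4 livers set apart 6 were higher and 4 lower. Sds lost the call in 5 of the 16 fits that each left out 1 liver (adjusted p up to 0.0536, limma-voom). Bcat2, a transaminase of branched-chain amino acids, was at 18.2 to 34.5 CPM (median 20.4) at 4 h and 38.6 to 59.6 CPM (median 45.2) at 22 h with no overlap. In the urea cycle list (14 tested) the lower genes were Slc25a15 (-1.26), Arg2 (-1.22) and Nags (-0.33) and the higher one was Gls2 (0.36). Slc25a15, the mitochondrial ornithine carrier, was at 1170 to 2273 CPM (median 1585) and 500.5 to 865 CPM (median 709) (log2 difference -1.26, SE 0.13, adjusted p = 6.29e-07, limma-voom), while the other 10 genes did not pass the test. Arg2 and Gls2 lost their calls in 11 and 11 of the fits without 1 liver (adjusted p up to 0.0978 and 0.0719, limma-voom).

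Amino acid transporters were split. Slc3a2, the heavy chain shared by several exchangers, was at 76.98 to 121 CPM (median 106) at 4 h and 33.02 to 58.4 CPM (median 42.6) at 22 h, with no overlap (log2 difference -1.27, SE 0.12, adjusted p = 1.68e-07, limma-voom). Slc7a1 and Slc7a5, which carry cationic and large neutral amino acids, had log2 differences of -1.20 and -0.72. Slc36a1 and Slc6a6, the latter a taurine transporter, were higher by 1.67-fold and 1.47-fold. In all, 4 of 20 were higher and 5 lower.

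Genes of insulin signalling were called in both directions, more often lower. Irs2, the docking protein that couples the insulin receptor to PI3-kinase, was at 24.3 to 38.4 CPM (median 29.9) at 4 h and 7.64 to 13.2 CPM (median 11.95) at 22 h. The 8 livers of 22 h all lay under the lowest 4 h liver (log2 difference -1.44, SE 0.12, adjusted p = 6.51e-08, limma-voom). Pik3r1, a regulatory subunit of PI3-kinase, was at 356 to 456 CPM (median 376) at 4 h and 138 to 209.9 CPM (median 182) at 22 h (log2 difference -1.09, SE 0.07, adjusted p = 4.48e-09, limma-voom). Igfbp1, a secreted binder of insulin-like growth factors that insulin represses, was at 73.1 to 293 CPM (median 173) and 32.9 to 122 CPM (median 62.7). Its wide groups overlapped, and the difference was 2.81-fold (log2 difference -1.49, SE 0.28, adjusted p = 3.93e-04, limma-voom).

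FOXO-linked genes went both ways. Pdk4, an inhibitor of pyruvate dehydrogenase, was at 57.98 to 146 CPM (median 100.2) at 4 h and 10.7 to 39.5 CPM (median 15.8) at 22 h. Depp1, a FOXO target, was at 0.359 to 2.27 CPM (median 1.48) at 4 h and 20.1 to 40.9 CPM (median 34.8) at 22 h. Pdk4 was thus 5.23-fold lower and Depp1 24.1-fold higher, both without overlap (adjusted p = 1.04e-06 and 1.10e-08, limma-voom). The list of 27 insulin and FOXO genes tested had 10 lower and 5 higher, the latter including Depp1 (4.59), Inhba (1.44), Grb14 (0.29) and Pik3r2 (0.19), the last of which lost its call in 5 of the fits without 1 liver (adjusted p up to 0.0612, limma-voom). Its median was -0.14. Glucocorticoid and C/EBP genes, which share several members with it, had 8 of 24 lower and 4 higher, Nfkbia (0.78), Serpina6 (0.75), Cebpa (0.59) and Klf9 (0.37).

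Genes of the clock were called in both directions. Arntl, the gene of BMAL1, was at 9.86 to 20.3 CPM (median 12.5) at 4 h and 2.34 to 5.98 CPM (median 3.13) at 22 h. Its repressor Nr1d1 (REV-ERB alpha) was at 19.04 to 41.5 CPM (median 32.03) at 4 h and 64.8 to 102 CPM (median 79.6) at 22 h. They moved in opposite directions without overlap, Arntl 3.84-fold lower and Nr1d1 2.69-fold higher (adjusted p = 5.62e-07 and 5.47e-07, limma-voom). Cry1, a repressor of BMAL1, was at 21.6 to 40.8 CPM (median 31.6) and 4.71 to 13.9 CPM (median 7.28), 4.13-fold lower (log2 difference -2.05, SE 0.19, adjusted p = 1.75e-07, limma-voom). Per1, which cAMP also induces, was at 30.4 to 63.8 CPM (median 50.2) at 4 h and 8.91 to 34.8 CPM (median 21.3) at 22 h, and Per2 was at 50.9 to 90.7 CPM (median 64.3) and 30.3 to 63.4 CPM (median 45.3). Both were lower with overlap of the groups, by 2.66-fold and 1.496-fold (adjusted p = 2.69e-04 and 0.0041, limma-voom), whereas Per3 was higher (1.07). In all 9 of 19 core clock genes were lower and 2 higher, Nr1d1 and Per3, with a median of -0.19.

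Output genes of the clock moved strongly as well. Dbp, a PAR bZIP factor driven by BMAL1, was at 16.3 to 28.99 CPM (median 26.5) at 4 h and 56.1 to 71.9 CPM (median 63.6) at 22 h. It was 2.599-fold higher at 22 h with no overlap (log2 difference 1.38, SE 0.10, adjusted p = 7.64e-09, limma-voom). Wee1, a cell-cycle kinase under E-box control, was at 11.1 to 18.9 CPM (median 15.4) and 27.7 to 41.6 CPM (median 31.7), and Hlf, another PAR bZIP factor, was 1.599-fold higher. Nfil3, which competes at D-boxes with Dbp and Hlf, and Noct, a rhythmic phosphatase, had log2 differences of -1.34 and -2.11. Of 13 output genes 6 were higher and 4 lower.

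**Figure D4:**
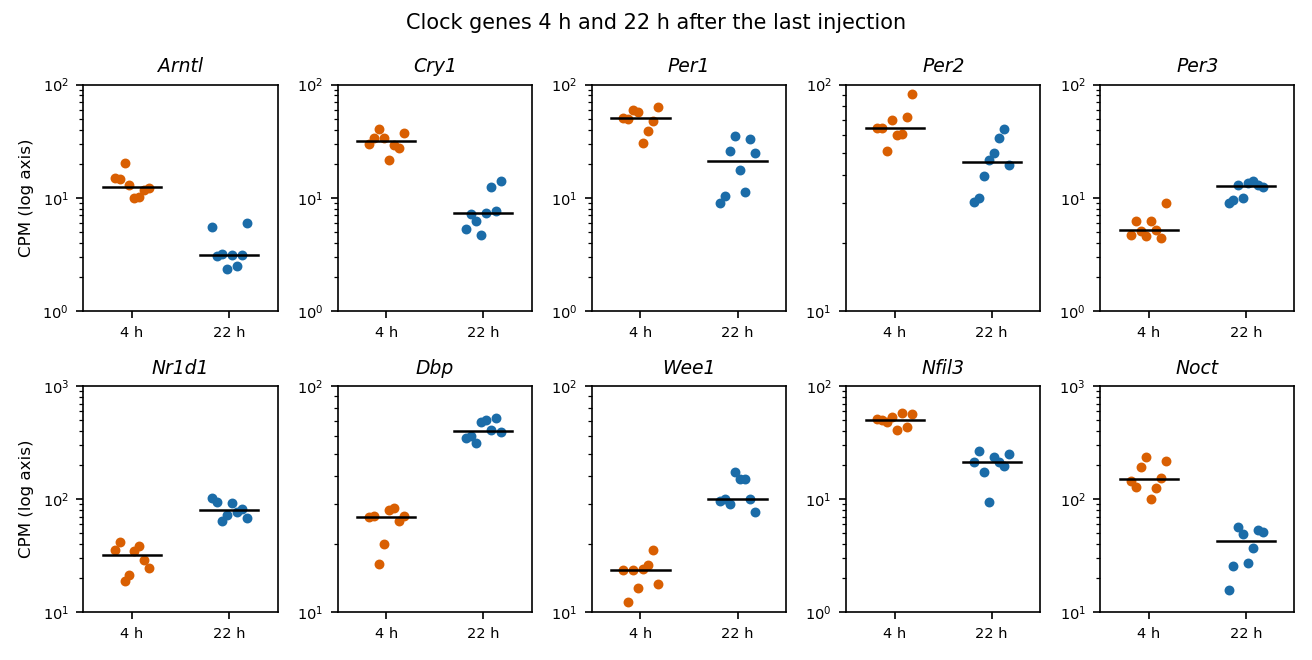
CPM on a log axis for 10 clock genes in each of the 8 livers of 4 h (orange) and 22 h (blue), with a bar at each median. Arntl, Cry1, Nfil3 and Noct are lower at 22 h, Nr1d1, Per3, Dbp and Wee1 are higher, and the Per1 and Per2 groups overlap.

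Several genes of fatty acid synthesis were lower at 22 h. Acly, which makes cytosolic acetyl-CoA from citrate, was at 711 to 935 CPM (median 800.1) at 4 h and 189 to 414 CPM (median 268) at 22 h. Elovl6, an elongase of saturated fatty acids, was at 492 to 754 CPM (median 609) and 218 to 341 CPM (median 258). Neither gene overlapped between the times, and the differences were 2.96-fold and 2.32-fold (adjusted p = 2.65e-07 and 1.21e-07, limma-voom). Scd1, the stearoyl-CoA desaturase, was at 1772 to 15428 CPM (median 8219) at 4 h and 1180 to 5657 CPM (median 3216) at 22 h, with the low end of the 4 h range set by replicate 4. Its difference was 2.61-fold (log2 difference -1.38, SE 0.39, adjusted p = 0.0107, limma-voom). Acacb, an acetyl-CoA carboxylase of the mitochondrial surface, was 1.98-fold lower. Of 18 genes tested 10 were lower, and the median of -0.53 was the lowest of the pathway lists with 5 or more genes tested. The higher one was Gpam (0.59), an acyltransferase of glycerolipid synthesis. Srebf1, the factor that drives the pathway, and Fasn, the synthase itself, did not pass. Srebf1 was at 59.999 to 149.8 CPM (median 113) at 4 h and 59.5 to 137 CPM (median 89.2) at 22 h, and Fasn at 113 to 659.8 CPM (median 407) and 163 to 672 CPM (median 255). Their log2 differences were -0.21 (SE 0.19) and -0.32 (SE 0.33), with adjusted p = 0.41 and 0.50 (limma-voom). Fasn was called lower once those livers set apart were left out (log2 difference -0.88, SE 0.24, adjusted p = 0.00962, limma-voom).

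Of the cholesterol synthesis list some genes were lower. Of 17 genes tested, 7 were lower and none was higher, with a median of -0.34. Without the 4 livers set apart 11 were lower and the median was -0.50. Hsd17b7, which acts late in the pathway, was at 96.2 to 149.7 CPM (median 121) at 4 h and 44.5 to 91.1 CPM (median 57.6) at 22 h with no overlap, and Fdps, the farnesyl diphosphate synthase, at 47.7 to 149 CPM (median 70.02) and 21.4 to 63.4 CPM (median 26.5). They were 2.03-fold and 2.28-fold lower (adjusted p = 4.10e-06 and 0.00129, limma-voom). Hmgcs1, whose window held a sterol core, was at 119 to 290.2 CPM (median 152) and 101 to 213 CPM (median 122) and did not pass (log2 difference -0.34, SE 0.18, adjusted p = 0.16, limma-voom). Sqle, the squalene epoxidase, did not pass either (log2 difference -0.61, SE 0.24, adjusted p = 0.0668, limma-voom), but 3 of the 16 fits that left out 1 liver called it. Both were called lower when the 4 livers set apart were left out, Hmgcs1 with log2 difference -0.50, SE 0.17, adjusted p = 0.0341 and Sqle with log2 difference -0.81, SE 0.25, adjusted p = 0.0245 (limma-voom). Npc1, which exports cholesterol from lysosomes, was higher without overlap, at 139.6 to 163 CPM (median 152) and 222 to 297 CPM (median 255) (log2 difference 0.76, SE 0.06, adjusted p = 3.57e-08, limma-voom).

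Few genes of fatty acid oxidation were called. Of 25 oxidation genes 2 were higher, Acaa1a (0.23) and Etfb (0.24), and 2 lower, Slc22a5 (-0.62) and Cpt1a (-0.21). Cpt1a, the gate of fatty acids into mitochondria, was at 1014 to 1326 CPM (median 1067) at 4 h and 854 to 1063 CPM (median 954) at 22 h, a difference of 1.16-fold. Acaa1a and Etfb lost their calls in 9 and 11 of the 16 fits without 1 liver (adjusted p up to 0.0791 and 0.0926, limma-voom). In ketogenesis 5 of 7 genes were called, a larger share than the 31.6% of all genes, by small steps in both directions. There 2 of 7 genes were higher, Acat3 (0.24) among them, and 3 lower, the transporters Slc16a6 (-0.45), Slc16a1 (-0.26) and Slc16a7 (-0.17). Slc16a7 lost its call in 13 of those fits (adjusted p up to 0.11, limma-voom). Without the 4 livers set apart, 1 ketogenesis gene was higher and 2 were lower, so the larger share rests on few genes. Among 22 PPARA targets 6 were higher and 2 lower, the latter being Pdk4 (-2.39) and Tfeb (-0.38). The tricarboxylic acid cycle list, with its regulators, had 9 of 25 lower and none higher, median -0.15, with Fh1, the fumarase, at 498 to 837 CPM (median 590.1) at 4 h and 258 to 438 CPM (median 351) at 22 h (log2 difference -0.85, SE 0.11, adjusted p = 8.37e-06, limma-voom). Of 32 nuclear genes of oxidative phosphorylation 1 was called, the cytochrome c gene Cycs (-0.40), while without the 4 livers set apart 2 were higher and 1 lower. Of 13 mitochondrially encoded genes none was called by limma-voom.

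Called genes of bile acid synthesis were all higher, and those of bile acid transport and FXR targets went both ways. Of 14 synthesis genes 4 were higher, Cyp8b1 (0.72), Hsd3b7 (0.48), Amacr (0.41) and Baat (0.29), and none was lower, with a median of 0.24. Cyp7a1, the rate-limiting enzyme, varied widely at 85.98 to 379 CPM (median 223) at 4 h and 151 to 563 CPM (median 395) at 22 h and did not pass (log2 difference 0.55, SE 0.33, adjusted p = 0.22, limma-voom). Leaving out the 4 livers set apart, it was called higher (log2 difference 1.02, SE 0.33, adjusted p = 0.0268, limma-voom). Nr1h4, the bile acid receptor FXR, was at 151 to 187 CPM (median 163) and 229.7 to 310.3 CPM (median 251), and its target Nr0b2 (SHP), a repressor of Cyp7a1, was at 1.22 to 3.07 CPM (median 2.17) and 6.32 to 20.4 CPM (median 10.04). Both stood apart between the times, 1.56-fold and 5.15-fold higher (adjusted p = 3.25e-07 and 7.27e-06, limma-voom). Of 18 transport genes and FXR targets 4 were higher and 3 lower. Fgfr4, the receptor through which gut FGF signals repress bile acid synthesis, was lower, at 34.6 to 48.2 CPM (median 36.9) against 19.7 to 29.3 CPM (median 21.1) (log2 difference -0.79, SE 0.10, adjusted p = 4.33e-06, limma-voom).

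Hepatocyte transcription factors had 16 of 34 higher, 5 lower and a median of 0.20. Nr1i3 (CAR), a sensor of foreign compounds, was at 21.5 to 39.8 CPM (median 33.4) at 4 h and 51.5 to 124 CPM (median 70.3) at 22 h, without overlap (log2 difference 1.28, SE 0.19, adjusted p = 3.15e-05, limma-voom). Xbp1, a factor of secretory capacity, was at 124 to 163 CPM (median 145) and 194 to 314 CPM (median 275). Rxra, the partner of many nuclear receptors, was 1.35-fold higher. Without the 4 livers set apart 3 were lower. The lower ones over all 16 livers were Onecut2 (-0.70), Onecut1 (-0.67), Nr1i2 (-0.55), Rarb (-0.54) and Esrra (-0.44), with Onecut1 losing its call in 9 of the 16 fits without 1 liver (adjusted p up to 0.0813, limma-voom). Cytochromes P450 of families 1 to 3 had 7 of 35 higher and 1 lower, Cyp2r1 (-0.41). Cyp2a5, which metabolises coumarin, was at 624 to 1002 CPM (median 819.6) at 4 h and 921 to 1746 CPM (median 1243) at 22 h, and Cyp2a22 was 2.75-fold higher, though reads of such close relatives can be hard to assign. Phase II enzymes (5 higher and 3 lower of 34) showed no common direction. Pericentral genes had 5 of 20 higher and 2 lower, and periportal genes 3 and 3 of 19, with 5 and 3 once those livers were left out.

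Called genes of acute phase, complement and coagulation were more often higher than lower. Fgb, a fibrinogen chain, was at 2370 to 3136 CPM (median 2693) at 4 h and 3458 to 6613 CPM (median 4372) at 22 h. Its level was 1.68-fold higher at 22 h with no overlap (log2 difference 0.75, SE 0.10, adjusted p = 1.68e-05, limma-voom). Serpinf2, the plasmin inhibitor, was at 299.5 to 486 CPM (median 365) and 493 to 693 CPM (median 542). Of 29 acute phase genes 7 were higher and 2 lower, Socs3 (-0.71) and Stat3 (-0.16), and Stat3 lost its call in 10 of the 16 fits without 1 liver (adjusted p up to 0.0935, limma-voom). With the 4 livers set apart left out, 7 acute phase genes were higher and 4 lower. The acute phase median was 0.12 over all 16 livers, -0.04 within replicates 1 to 4 and 0.30 within replicates 5 to 8. Of 42 complement and coagulation genes 10 were higher and 1 was lower, F8 (-0.74). Cxcl1, a chemokine for neutrophils, was among the 10 largest rises, at 2.37 to 8.94 CPM (median 3.93) at 4 h and 12.9 to 44.6 CPM (median 21.8) at 22 h, with no overlap (log2 difference 2.38, SE 0.34, adjusted p = 2.64e-05, limma-voom).

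Transcripts of an activin subunit and of an activin blocker moved in opposite directions, and signalling itself was not measured. Inhba, which encodes the activin A subunit, was at 2.31 to 8.34 CPM (median 7.202) at 4 h and 13.9 to 21.3 CPM (median 16.4) at 22 h, and Fst, the follistatin that binds and blocks activins, was at 58.3 to 89.2 CPM (median 67.1) and 8.39 to 33.1 CPM (median 18.98). Inhba was thus 2.72-fold higher and Fst 3.73-fold lower, each with separate groups (adjusted p = 1.14e-05 and 3.48e-07, limma-voom). Acvr1b, a type I activin receptor, was 1.79-fold higher. Of 22 hepatokine and activin genes 8 were higher and 4 lower. In the growth hormone and IGF list 3 of 28 were higher, Egfr (0.83), Igfbp2 (0.80) and Socs2 (0.57), and 4 lower. The other 21 were not called, a somewhat larger share than over all genes tested (7466 of 10908). When the 4 livers set apart were left out, 7 were higher and 3 lower.

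The remaining large rises had little in common by known role. R3hdml was at 0.417 to 1.66 CPM (median 0.505) at 4 h and 9.61 to 29.6 CPM (median 14.5) at 22 h, and B3galt1, a galactosyltransferase, at 6.896 to 12.6 CPM (median 8.37) and 40.5 to 86.6 CPM (median 62.7). Foxq1, a forkhead factor, was at 0.901 to 5.47 CPM (median 2.18) and 6.79 to 15.6 CPM (median 10.5), and Spry4 at 2.65 to 4.73 CPM (median 3.28) and 8.61 to 26.5 CPM (median 12.3). No pair of ranges overlapped, and the differences were 25.6-fold, 6.86-fold, 4.44-fold and 4.24-fold (adjusted p = 1.42e-07, 7.35e-09, 1.65e-05 and 4.30e-06, limma-voom).

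Genes that make and charge the translation machinery diverged. Of 42 ribosomal protein genes 16 were higher and none lower, each by a small step, as with Rps24 at 158 to 188 CPM (median 178) at 4 h and 171 to 234 CPM (median 214) at 22 h, and the median was 0.16. Without the 4 livers set apart, 8 were higher. Ribosome biogenesis genes, which build the particle in the nucleolus, had 9 of 24 lower and 1 higher, Dkc1 (0.37). Rrn3, a factor of RNA polymerase I, was at 38.9 to 51.5 CPM (median 46.4) and 27.6 to 35.9 CPM (median 32.4) without overlap (log2 difference -0.47, SE 0.07, adjusted p = 1.99e-05, limma-voom). Of 18 aminoacyl-tRNA synthetases 6 were lower and none higher, Aars (-0.62) being the furthest. The integrated stress response, which induces such synthetases through ATF4, had 8 of 24 lower and 1 higher, Atf5 (0.78), with a median of -0.29. Mthfd2, a mitochondrial folate enzyme in that list, was at 5.16 to 15.7 CPM (median 10.1) at 4 h and 2.37 to 4.51 CPM (median 3.49) at 22 h, and Mthfd1l, its neighbour in the pathway, at 21.8 to 28.6 CPM (median 24.3) and 7.86 to 15.1 CPM (median 10.4). Both were lower with no overlap (2.97-fold and 2.41-fold, adjusted p = 7.11e-05 and 8.31e-08, limma-voom), although the methionine and one-carbon list as a whole had 6 of 29 higher and 5 lower.

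Some lists moved little or in both directions. Glycolysis and glycogen genes had 4 higher and 6 lower of 36, with Pfkfb2, a kinase that sets fructose 2,6-bisphosphate, at 170.1 to 271 CPM (median 209.7) at 4 h and 96.7 to 131 CPM (median 116) at 22 h (log2 difference -0.89, SE 0.08, adjusted p = 1.89e-07, limma-voom). Genes of NAD metabolism included Slc25a51, the mitochondrial NAD carrier, at 334 to 500.00 CPM (median 377) and 111 to 186 CPM (median 143) (log2 difference -1.46, SE 0.11, adjusted p = 1.10e-08, limma-voom), and the higher genes Ido2 (0.95), Nmrk1 (0.92) and Naprt (0.33). Heat shock genes (2 higher and 3 lower of 29), NRF2 and glutathione genes (3 and 4 of 35), heme genes (4 and 1 of 21), autophagy and lysosome genes (4 and 6 of 27), lipid droplet genes (1 and 3 of 19) and apolipoproteins (3 and 0 of 20) had medians between -0.03 and 0.08. Sterol uptake genes (6 and 4 of 20) and carboxylesterases (2 and 1 of 13) lay within the same bounds. Leaving out the 4 livers set apart, 3 apolipoprotein genes were higher and 2 lower. Polyamine genes (1 and 4 of 16), chaperones of the endoplasmic reticulum (1 and 4 of 19), interferon-stimulated genes (2 and 5 of 30) and proliferation genes (2 and 6 of 39) had medians of -0.17, -0.17, -0.12 and -0.11. The interferon-stimulated list turned when those livers were left out, to 5 higher and 1 lower with a median of -0.00085. E2f8, a repressor of cell-cycle genes with a role in polyploid hepatocytes, was at 10.4 to 23.8 CPM (median 14.8) at 4 h and 3.38 to 6.23 CPM (median 5.58) at 22 h with no overlap (log2 difference -1.58, SE 0.19, adjusted p = 4.02e-06, limma-voom).

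**Figure D5:**
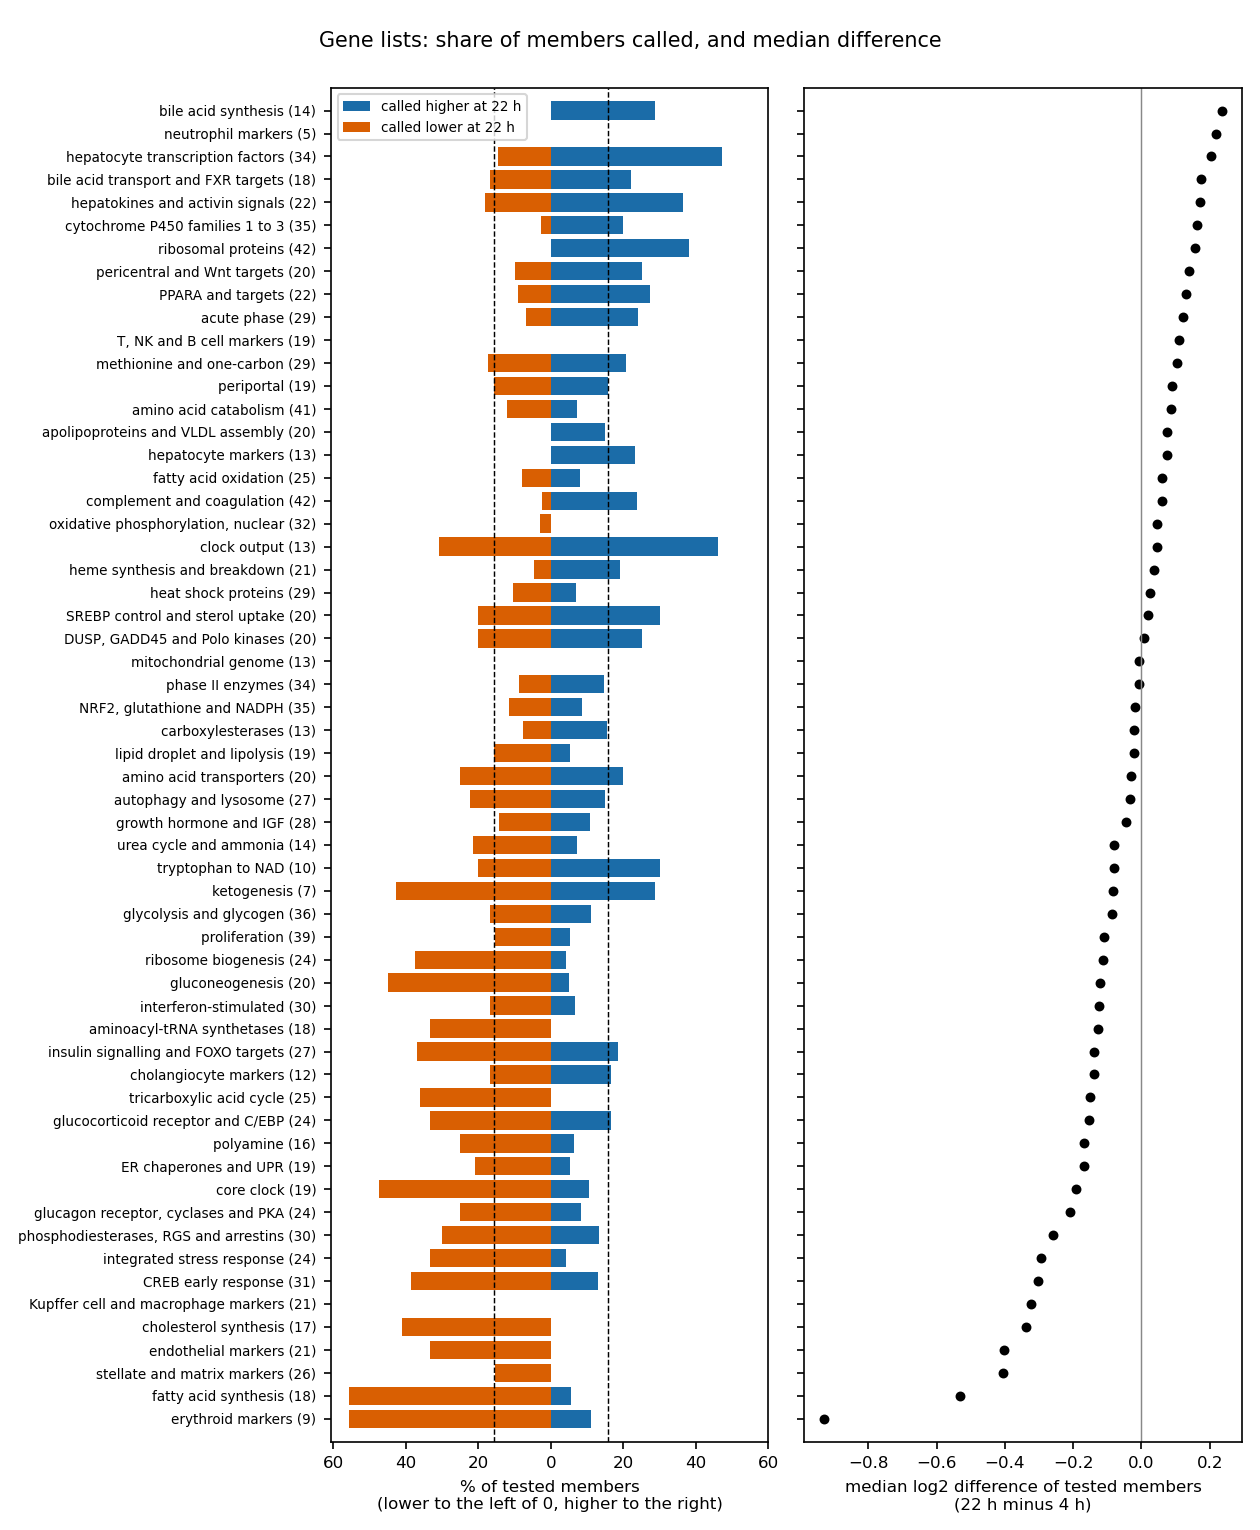
For each gene list with 5 or more genes tested (number in brackets), the share of members called lower (orange, to the left of 0) and higher (blue, to the right) at 22 h, and on the right the median log2 difference. Dashed lines mark the 15.8% and 15.7% of all genes called higher and lower, which gluconeogenesis, fatty acid synthesis and the core clock pass on the lower side and hepatocyte transcription factors and ribosomal proteins on the higher side.

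Markers of endothelial, stellate and macrophage cells had medians under 0, and mainly in replicates 5 to 8. Within replicates 1 to 4 the medians were -0.15 for endothelial, -0.15 for stellate and matrix and -0.02 for macrophage markers, and within replicates 5 to 8 they were -0.69, -0.60 and -0.68. Endothelial markers, 21 genes, summed to 628 to 721 CPM (median 652) at 4 h and 303 to 688 CPM (median 559) at 22 h, and 7 were called lower and none higher. The lowest sums were in replicates 6 and 7 of 22 h, and without the 4 livers set apart 1 was called lower. Vwf, made by endothelial cells, was at 9.95 to 16.8 CPM (median 12.97) and 5.98 to 10.7 CPM (median 8.51) (log2 difference -0.66, SE 0.13, adjusted p = 7.66e-04, limma-voom). Stellate and matrix markers had 4 of 26 lower, close to the 15.7% of all genes tested, and none higher. Their sums were 798 to 1343 CPM (median 1116) at 4 h and 453 to 1304 CPM (median 894) at 22 h, with much overlap. Without those livers 8 were lower. Of 21 macrophage markers none was called by limma-voom, with sums of 851 to 1273 CPM (median 1031) and 484 to 1385 CPM (median 942), and the same held for 19 lymphocyte and 5 neutrophil markers.

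Several red-cell transcripts were lower. Of 9 erythroid markers tested 5 were lower, among them the globins Hba-a2 (-1.05), Hba-a1 (-1.02), Hbb-bt (-1.01) and Hbb-bs (-0.93), and Klf1 (0.56) was higher, though Klf1 lost its call in 10 of the 16 fits without 1 liver (adjusted p up to 0.085, limma-voom). Hbb-bs was at 47.6 to 97.7 CPM (median 61.2) at 4 h and 19.04 to 61.4 CPM (median 32.5) at 22 h, with some overlap. Globin copies are near-identical and their reads may have been divided between them. Cholangiocyte markers had 2 of 12 higher, Sox9 (0.91) among them, and 2 lower. Of 18 fat, muscle and pancreas markers, 17 did not pass the filter on low counts, and none of those exceeded 0.556 CPM in any liver. The part of these cells in the differences above was not tested.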

How the data were processed

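RNA of 16 livers was sequenced, 8 per time, after poly(A) library preparation from frozen tissue. Per the submitters' processing notes, the authors trimmed reads with cutadapt and aligned them to GRCm38 with GSNAP. Versions, the counting tool, annotation and strand setting are not given in the sources used here. The authors deposited 1 table of raw counts per gene and liver, whole numbers with no normalization, keyed by Entrez number. In text order its numbers stop at 50932, and genes sorting later, 33.1% of RefSeq's protein-coding ones, were not analysed here.

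The filter on low counts (10 counts, scaled to depth, in at least 8 livers and 15 in total) kept 10908 genes and 99.9% of counts. Counts were scaled by TMM (trims of 30% and 5%, written out in R 4.3.3) and fitted with limma-voom (limma 3.58.1; offset 0.5, group means, 14 residual degrees of freedom), adjusted by Benjamini-Hochberg over all genes. An edgeR test, planned first, was not run, and neither was DESeq2. In data simulated from these livers, 67, 67 and 66 of 10908 genes were changed by 1.5-fold, 2-fold and 4-fold. The test found 47.8%, 70.2% and 86.4% of them, with 8 false among 144 calls. Far more genes were called in the livers themselves (3442), where the adjustment is less strict. These shares therefore do not give the recovery in this comparison.

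CPM are TMM-scaled, with 3 values per group standing for 8 livers (lowest, highest, median), and fold differences come from the model. For genes with many counts, counting error is small beside the spread between mice. It can be large for genes of few counts, such as Arg2 (1 to 13 counts at 22 h) and Ackr3 (5 to 16 at 22 h). Each p-value sets the difference between the times against the spread between livers within a time. Chi-square per degree of freedom between livers of a group ran from 20.3 to 153 over 56 pairs, so none was a copy. Differences in CPM between genes depend on length and were not compared. Sequences and coordinates are RefSeq's on GRCm38.p6, and 94.4% of genes tested matched by Entrez number. Counts from near-identical or overlapping genes cannot be separated.

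Genes named are 24 chosen ones, the 10 largest called rises and falls (at least 5 CPM in 1 group, all 8 livers of 22 h on the side of the change, no gene models), and up to 3 per list by smallest p (at least 1 CPM). Others are named because a list had few called genes, and were picked after their values were seen. Some genes are not reported here. Members and the 59 lists were chosen with earlier results of these data known. Alternatives were other scalings, filters, weights, thresholds, a replicate block, subsets of livers and all 24 livers in 1 fit.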

Additional observations from a re-analysis of the deposited data

Results flagged for a closer look

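In the 320 groups of 8 livers behind the genes named, 17 had a liver far from the other 7 (by Dixon's 95% limit for the gap to the nearest value on the log2 scale), and chance alone sets such a liver apart in about 5% of groups. Of the 17, 6 were in 4 h replicate 4, 1 of the livers set apart on the second component. There Ppargc1a was at 232.9 CPM against 102.1 to 150.7 in the other 4 h livers, R3hdml at 1.66 CPM, Acat3 at 281.9 CPM, Baat at 403 CPM and Pde4c at 13.02 CPM, all higher than in the rest of the group. Scd1 was lower there, at 1772 CPM against a next value of 6329. In 4 h replicate 8 the cytochrome c gene Cycs was at 81.1 CPM against 46.4 to 50.6 in the others, Pik3r1 at 455.6 CPM against 355.9 to 385.5, and Slc16a6 at 5.45 CPM against at least 7.55. Acacb was at 230.8 CPM and Grb14 at 59.3 CPM in 4 h replicate 5, both the highest of the group, and Rps24 at 157.7 CPM in 4 h replicate 2, the lowest. At 22 h the lowest values stood out, namely Crem at 20.9 CPM and Acat3 at 219.9 CPM in replicate 5, Ackr3 at 0.148 CPM in replicate 2, Nfil3 at 9.45 CPM in replicate 4 and Spred1 at 48.6 CPM in replicate 7. None of these 16 genes lost its call in any of the 16 fits without 1 liver (limma-voom).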

How the results depend on the processing

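The count of 3442 genes called stayed within 1.5 times of itself under every scaling, filter, weighting and leave-one-out fit tried, from 3155 to 3654, with 3155 to 3539 when 1 liver was left out. Within replicates 1 to 4 it was 2132 (1007 higher, 1125 lower) and within replicates 5 to 8 it was 1859 (887 higher, 972 lower), with 8 livers in each fit. An adjusted p under 0.01 left 1151 higher and 1148 lower, and a difference of at least 2-fold left 655, of which 403 were higher (61.5%, against 50.2% of all called) and 252 lower. Library totals in place of TMM raised the share called higher to 55.8%. Same-numbered livers came from different mice and did not deviate together (correlations from -0.25 to 0.16, 2 of 8 over 0.1, and 4 of 16 livers closest to their own number). A replicate block called 3209 genes. No gene differed by limma-voom between replicates 1 to 4 and 5 to 8 with time as a term (858 at an unadjusted p under 0.05). Of 160 genes named here, 147 were called, and 10 of them lost the call in at least 1 fit without 1 liver. No named gene that was called, or became so, changed direction in the fits where single genes were followed. Those were the other scalings, library weights, the replicate block, the term for replicates 1 to 4 against 5 to 8, the subsets of livers and the leave-one-out fits. Within replicates 5 to 8 not all 160 could be followed (127 stayed the same and 31 were weaker). Directions of single genes were not checked under other filters, without voom weights or with the vehicle livers in the fit. Between replicates 1 to 4 and 5 to 8 the medians of 23 of 59 lists changed sign, by most for proliferation (0.37 and -0.60), T, NK and B cell markers (0.42 and -0.21), cholangiocyte markers (0.19 and -0.28) and the DUSP, GADD45 and Polo kinases (0.20 and -0.22). These causes were not tested. Fits by edgeR and DESeq2 were planned and not run. With 8 mice per time, small differences can be missed. How often was not measured, because the simulation changed far fewer genes than were called here.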

Other observations

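Some genes varied far more between mice of a time than between the times. Among genes of at least 5 CPM the widest spread at 22 h was that of Marco, a scavenger receptor of macrophages, at 0.205 to 48.6 CPM (median 10.1) at 22 h and 1.32 to 23.97 CPM (median 10.8) at 4 h. Hsd3b5, a male-biased steroid enzyme driven by pulsed growth hormone, was at 34.6 CPM in 22 h replicate 6 and at most 2.17 CPM in the other 15 livers. Mup7, a major urinary protein under the same hormone, was at 4035 and 2149 CPM in replicates 6 and 2 of 22 h and at most 1111 CPM elsewhere. Other members of that family and Slco1a1, a hepatic uptake transporter, were also among the 15 genes of widest spread at 22 h, and reads of near-identical Mup genes can be divided between copies. None of the 3 genes Marco, Hsd3b5 and Mup7 was called between the times (adjusted p = 0.61, 0.18 and 0.83, limma-voom). Over all genes tested the SD of log2 CPM was larger at 22 h for 62.3%, with medians of 0.28 at 22 h and 0.25 at 4 h.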
